A study of Mus musculus with 12 samples.

Results

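Mouse zinc finger genes that carry a plain Zfp symbol with a number from 400 to 999 were followed in the hippocampus during status epilepticus (SE). A probe set was taken when the platform annotation gives it a single gene symbol made of Zfp and such a number, and where a gene had several, the brightest on average over the 12 arrays stood for it. This rule found 198 genes on 211 probe sets, out of 19938 genes with a probe set of 1 symbol. The lowest number among them was 407 and the highest 991. Members were chosen by their symbols, but the group itself was selected on the differences between heterozygous mice with SE and heterozygous controls, where many of its genes were lower. Values of that comparison are therefore given as a description with counts and no p. A further 38 probe sets name a gene with such a number together with other genes and were left out of the group. Of these 38, 5 (13.2%) were lower and 0 higher in heterozygous SE, beside 6.93 and 5.08% of all tested probe sets, with a median log2 difference of -0.11.

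Most mouse genes of this kind encode proteins with an array of zinc fingers that bind DNA, and many of these proteins also carry a KRAB domain. The KRAB domain recruits the corepressor Trim28 and with it enzymes that place repressive marks on histones and DNA, and the best known targets of such complexes are transposable elements and imprinted loci. KRAB zinc finger genes multiplied by tandem duplication and therefore often lie side by side in clusters. The number in a Zfp symbol is a serial name and says nothing about function, so that the group also holds zinc finger genes without a KRAB domain.

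The study asked how serum response factor (Srf), a transcription factor of activity-regulated genes, acts in the mouse pilocarpine model of epilepsy, in which this muscarinic agonist drives the hippocampus into continuous seizures. Hippocampal RNA of 12 adult mice, 7 to 10 weeks old and on a C57/Bl6 background, was hybridized to 12 Affymetrix Mouse Gene ST arrays, 3 for each of 4 groups. All mice had received tamoxifen and carried an inducible Cre recombinase under the Camk2a promoter, which deletes Srf in glutamatergic neurons of the forebrain and leaves it in the other cells of the tissue. Heterozygous mice, called WT or control in the labels, kept 1 Srf allele, and no mouse with both Srf alleles was measured. The groups were heterozygous controls and Srf mutant controls without pilocarpine, heterozygous mice killed after 40 min of SE, and Srf mutants that were injected with pilocarpine. Pilocarpine was given at 335 or 350 mg/kg after scopolamine, and the dose of each mouse is not stated in the sources used here. The labels call the injected mutants mice with seizure and do not mention SE. The study describes 3 injected mutants with grade 4 seizures but no SE and 2 others that reached SE, and the 3 arrays were taken here as the mutants without SE because their number fits, an inference on which every mutant value below rests. The time of their harvest is not stated in the sources used here. If the inference holds, genotype and SE cannot be told apart when the responses of both genotypes are set side by side.

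Srf had a log2 signal of 9.53 to 9.60 in the heterozygous controls, 10.16 to 10.27 in heterozygous SE, 8.80 to 8.96 in the mutant controls and 8.83 to 8.90 in the mutants with pilocarpine, so that all mutant arrays lay below all heterozygous arrays. Array medians were between 7.66 and 7.72 over the 23410 tested probe sets, and the lowest correlation between any pair of arrays was 0.993. Xist, an RNA of female cells, was above 9 on 1, 0, 2 and 1 of the 3 arrays of heterozygous controls, heterozygous SE, mutant controls and mutants with pilocarpine, so that the sexes were not balanced. With Xist as a covariate, 67 members were lower in heterozygous SE, of which 62 were among the 67 lower without it. Over all tested probe sets 1460 were then lower, beside 1623 without it.

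Promoter sequences are shown for the members with the largest falls, Zfp418 and Zfp719, and for those with the largest rises among members with a promoter in the RefSeq table, Zfp948 and Zfp869, so that the motifs searched can be seen in genes that moved in opposite directions. Zfp516 and Zfp707 have no entry in that table. Each is the 250 bases before the RefSeq start on GRCm38.p6, printed 5′ to 3′ on the strand of the gene. Capitals mark matches to TATAAA, TGACGTCA (a cyclic AMP response element), CCAAT and GGGCGG (a GC box) on either strand and to the CArG box, the motif bound by Srf. Zfp418 lies at chr7:7171103-7171352 on the plus strand and Zfp719 at chr7:43579336-43579585 on the plus strand. The Zfp948 promoter is chr17:21566728-21566977 on the plus strand and that of Zfp869 is chr8:69716903-69717152 on the minus strand.
Zfp418: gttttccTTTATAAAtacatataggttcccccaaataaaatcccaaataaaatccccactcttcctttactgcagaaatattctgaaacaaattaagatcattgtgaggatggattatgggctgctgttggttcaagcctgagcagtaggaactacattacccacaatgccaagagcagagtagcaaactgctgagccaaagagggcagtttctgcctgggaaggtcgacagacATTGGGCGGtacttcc
Zfp719: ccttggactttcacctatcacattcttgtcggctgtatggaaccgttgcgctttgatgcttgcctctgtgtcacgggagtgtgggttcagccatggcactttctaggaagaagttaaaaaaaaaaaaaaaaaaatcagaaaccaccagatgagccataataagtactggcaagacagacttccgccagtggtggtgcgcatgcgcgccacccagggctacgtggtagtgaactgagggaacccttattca
Zfp948: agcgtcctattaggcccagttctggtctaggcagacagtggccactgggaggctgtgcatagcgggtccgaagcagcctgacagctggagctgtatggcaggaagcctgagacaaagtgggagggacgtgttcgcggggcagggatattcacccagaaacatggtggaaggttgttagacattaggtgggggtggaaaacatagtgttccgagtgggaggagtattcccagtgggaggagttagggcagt
Zfp869: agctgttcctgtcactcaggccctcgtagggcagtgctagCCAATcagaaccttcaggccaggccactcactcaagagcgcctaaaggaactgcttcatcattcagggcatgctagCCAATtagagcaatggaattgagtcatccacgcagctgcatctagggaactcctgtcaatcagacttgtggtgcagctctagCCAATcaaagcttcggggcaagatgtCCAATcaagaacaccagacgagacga
The window of Zfp418 holds TATAAA on both strands and CCAAT on the opposite strand overlapping a GC box, and the window of Zfp869 repeats CCAAT. None of the motifs is present in the windows of Zfp719 or Zfp948. Each direction thus holds 1 promoter with matches and 1 without, and no more is drawn from these 4 sequences.

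Members were expressed across most of the range of the array. Their mean log2 signal ran from 4.08 to 12.34 with a median of 7.75, beside a median of 7.69 over all tested probe sets. The brightest was Zfp706. The signal of 169 members was above 5.77, the 25th percentile of all tested probe sets, and that of 29 was below it, and all 198 are kept in the counts. Signals of different probe sets depend on their probes and do not rank transcripts by amount. Paralogs within a cluster share sequence, and the part of cross-hybridization in any single value was not tested.

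In heterozygous mice with SE the median of the group was below that of the controls. The median difference of the members from the mean of the heterozygous controls was -0.11, -0.16 and -0.16 (log2) in the 3 mice with SE, and 77.3, 75.3 and 82.8% of the members lay below that mean. Over all tested probe sets the medians were -0.03, -0.02 and -0.03, with 60.5, 55.5 and 62.7% below. All 3 mice with SE therefore showed the shift to a similar degree. In the controls the member medians were between -0.01 and 0.00, near 0 by construction, since the mean they are taken from is their own.

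**Figure D1:**
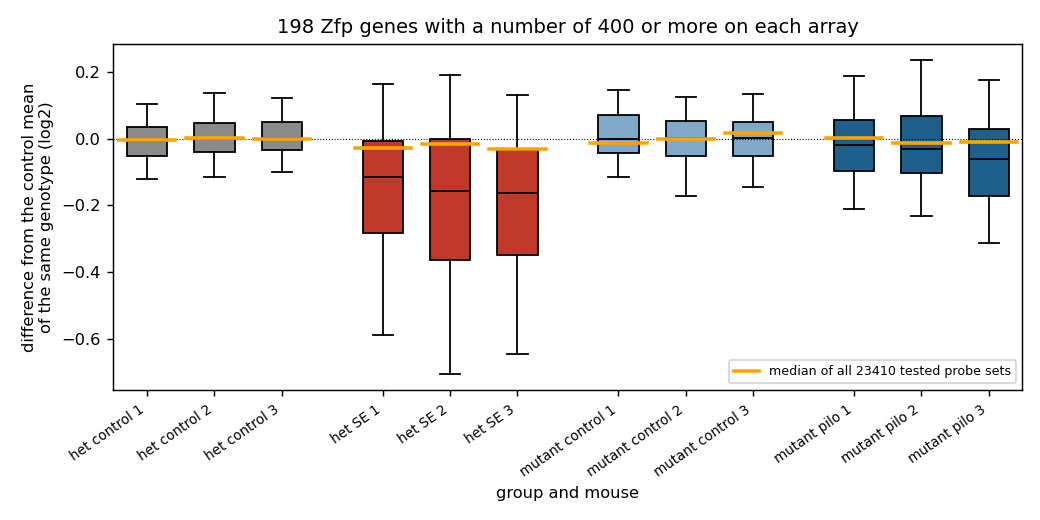
Differences of the 198 members from the control mean of the same genotype (y axis, log2) on each of the 12 arrays (x axis). Boxes span the quartiles with the median as a black line, whiskers reach the 5th and 95th percentiles, and orange lines are medians of all 23410 tested probe sets. The boxes of the 3 mice with SE reach far below 0, with medians of -0.11 to -0.16, and those of mutants given pilocarpine lie close to 0.

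Of the 198 members, 67 (33.8%) were lower in heterozygous SE and 6 (3.03%) were higher by the limma call, at an adjusted p under 0.05. Over all tested probe sets 6.93% were lower and 5.08% higher. In 95 members (48.0%) every mouse with SE lay below every control, beside 19.8% of all probe sets, and in 12 (6.06%) every mouse with SE lay above, beside 10.6%. The median log2 difference was -0.15 (SD over members 0.28) and that of all probe sets was -0.03 (SD 0.23). Calls over all probe sets changed from 1623 lower and 1190 higher to 1112 lower and 1493 higher under cyclic loess normalization, whereas the members then had 55 lower and 8 higher.

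Most falls were small. In 155 members (78.3%) the difference was below 0, beside 61.2% of all tested probe sets, and the quartiles of the members were -0.32 and -0.02. Only 2 members fell by at least 2-fold and 25 fell by 0.5 or more on the log2 scale, out of 200 tested probe sets of any kind with such a difference. The 67 lower members had medians of -0.36, -0.46 and -0.44 in the 3 mice. The other 131 members had medians of -0.06, -0.04 and -0.08 on the same arrays. Fewer cells of a type and less RNA per cell cannot be told apart in RNA of whole hippocampus.

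Zfp418 and Zfp719 had the largest falls. The log2 signal of Zfp418, a KRAB zinc finger gene, was 7.68, 7.80 and 7.70 in the heterozygous controls and 6.67, 6.57 and 6.43 in SE. These groups were far apart, and the difference was -1.17 (standard error 0.0681, n = 3 mice per group), a 2.25-fold fall. Zfp719 had 9.39, 9.45 and 9.48 in the controls and 8.53, 8.25 and 8.51 in SE. Its difference was -1.01 (standard error 0.0696), or 2.01-fold, although its signal was well above that of most members.

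Zfp599 and Zfp748 followed. Zfp599 on chromosome 9 measured 7.68, 7.84 and 7.88 in controls and 7.13, 6.99 and 6.68 in SE, a difference of -0.86 (standard error 0.098). Zfp748 on chromosome 13 measured 8.09, 8.10 and 8.08 in controls and 7.44, 7.23 and 7.44 in SE, a difference of -0.72 (standard error 0.0788). The spread among the controls of Zfp748 was only 0.0104 (SD, n = 3). Zfp759, also on chromosome 13, had 7.01, 7.12 and 6.97 in controls and 6.40, 6.19 and 6.43 in SE.

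**Figure D2:**
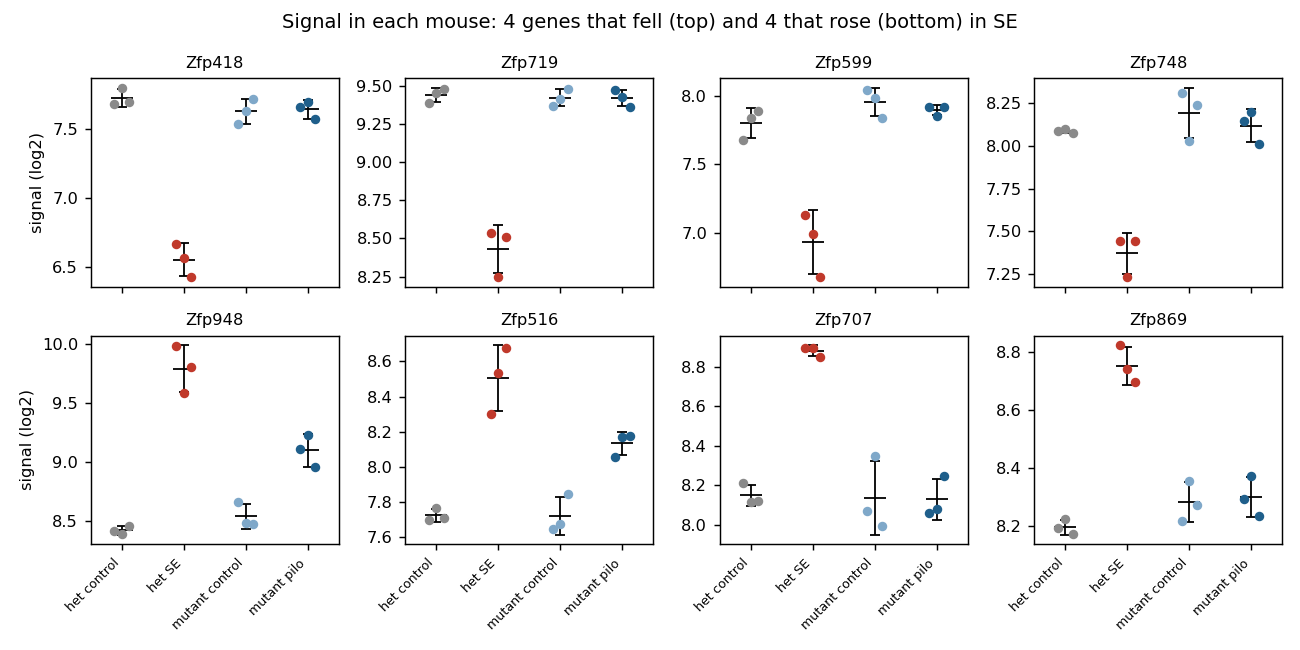
Log2 signal (y axis) in each mouse of the 4 groups (x axis) for 4 members that fell and 4 that rose in heterozygous SE. Points are mice, horizontal bars are means and error bars are SDs (n = 3), and each panel has its own y range. For Zfp418, Zfp719, Zfp599 and Zfp748 the mice with SE stand alone below the other 3 groups, and for Zfp948 and Zfp516 the mutants with pilocarpine lie between the controls and SE.

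The next members lay close together. Zfp563 and Zfp763, neighbours in a cluster on chromosome 17, both had a difference of -0.68. Zfp563 had 7.42, 7.54 and 7.60 in controls and 6.99, 6.63 and 6.90 in SE, and Zfp763 had 8.34, 8.53 and 8.20 in controls and 7.92, 7.36 and 7.76 in SE. Zfp763 varied more between mice than the others, and its call was lost when the second heterozygous control was left out. Zfp626 differed by -0.66, Zfp454 by -0.63, and Zfp791, Zfp786 and Zfp551 each by -0.62. In all of these the groups did not overlap. The tightest of them were Zfp454 with 7.02, 6.95 and 7.00 in SE against 7.54 to 7.70 in controls and Zfp786 with 6.0 to 6.09 against 6.60 to 6.76.

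Some members with a known role can be placed in this distribution. Zfp809, which silences retroviral DNA in embryonic stem cells through the proline primer binding site, fell from 9.50, 9.58 and 9.52 in the controls to 8.95, 8.93 and 9.02 in SE, a difference of -0.57 (standard error 0.0456). Zfp445, a regulator of imprinted loci, had 9.35, 9.40 and 9.32 in controls and 9.52, 9.55 and 9.46 in SE, and its difference of 0.15 was not called. Zfp568, which represses a placental transcript of Igf2, had a difference of -0.08 and was not called either. Zfp598, the ubiquitin ligase that marks collided ribosomes, differed by 0.21 without a call. Zfp423 and Zfp521, factors of neural and fat cell precursors, had differences of -0.02 and 0.08 and were not called. Only Zfp809 among these genes was called lower, beside 33.8% of all members. They were picked after their values were seen and are not a full list of members with known roles. Nothing is drawn from them about such members.

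Only 6 members were higher in SE. Zfp948 on chromosome 17 had 8.41, 8.39 and 8.46 in the controls and 9.98, 9.59 and 9.80 in SE. This difference of 1.37 (standard error 0.0937), a 2.58-fold rise, was larger than any fall in the group. Zfp516, known as a transcriptional activator of the brown fat gene Ucp1, rose from 7.70, 7.77 and 7.71 to 8.30, 8.54 and 8.67, by 0.78 (standard error 0.0829). Zfp707 rose from 8.21, 8.12 and 8.12 to 8.90, 8.90 and 8.85, by 0.73, with a spread in SE of only 0.0282 (SD, n = 3).

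The other 3 rises were smaller. Zfp869 measured 8.19, 8.22 and 8.17 in controls and 8.82, 8.74 and 8.70 in SE, a difference of 0.56. Zfp868, which like Zfp869 is on chromosome 8, differed by 0.30, and Zfp593, a gene of ribosome biogenesis, by 0.37. The calls of Zfp868 and Zfp593 were lost when a single heterozygous array was left out (heterozygous control 1 or SE mouse 3 for Zfp868, control 2 or SE mouse 3 for Zfp593).

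The fall did not follow the signal of a gene in a steady way. Members were ordered by their mean in the mutant controls, arrays that do not enter the heterozygous difference of means, and cut at 7.36 and 8.35. The median difference was -0.13 in the 66 dimmest members (signal 4.05 to 7.31), -0.23 in the 66 of middle signal and -0.11 in the 66 brightest (8.36 to 12.36). Medians of all tested probe sets in the same ranges were -0.02, -0.05 and -0.03. The middle range thus had the deepest medians both among members and among all probe sets.

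Counts of calls followed the same order at the top. Of the dimmest members 12 (18.2%) were lower, of the middle members 30 (45.5%) and of the brightest 25 (37.9%), beside 2.46, 12.6 and 10.2% of all probe sets in these ranges. Falls of 0.5 or more numbered 3, 15 and 7. The members with the median difference were Zfp473 (-0.13), Zfp526 (-0.23) and Zfp511 (-0.12) from the dimmest to the brightest range, of which none was called. Zfp526 had 8.06, 7.89 and 8.12 in controls and 7.67, 7.87 and 7.84 in SE, so that the median member of the middle range had groups only just apart. The median spread between replicates was 0.0988 (SD) in the dimmest range, 0.0946 in the middle and 0.069 in the brightest.

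**Figure D3:**
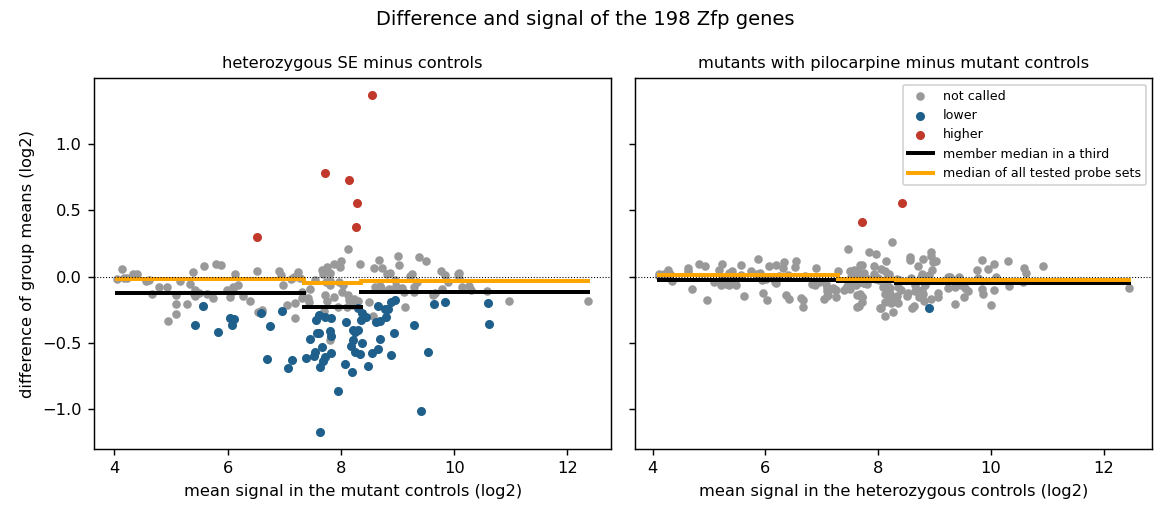
Difference of group means (y axis, log2) against mean signal in the controls of the other genotype (x axis, log2) for the 198 members, in heterozygous SE (left) and in mutants with pilocarpine (right). Points are genes coloured by the limma call, black bars are member medians in 3 ranges of signal with 66 members each and orange bars are medians of all tested probe sets in these ranges. Left, medians are -0.13, -0.23 and -0.11 and the falls below -0.5 lie mostly between signals of 7 and 9. Right, they are -0.02, -0.03 and -0.05.

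With 6 ranges of 33 members the medians were -0.10, -0.16, -0.30, -0.21, -0.22 and -0.09 from dim to bright, with 3, 9, 17, 13, 18 and 7 members lower. The third range, with signals of 7.38 to 7.82, held both Zfp418 and the deepest median, and the brightest, with signals of 9.02 to 12.36, had the median closest to 0. Across the 198 members the correlation of signal and difference was -0.04 (Pearson) and 0.00 (Spearman), over genes that share the same arrays. Without the 29 dim members the median of the lowest range minus that of the highest changed from -0.01 to -0.11, since the ranges were then cut at other signals.

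The lower members were spread over the genome, with most of them on the chromosomes that hold most of the group. A position was found for 197 members on 20 chromosomes. Chromosome 7 carried 55 members, of which 25 were lower and 0 higher, with a median of -0.19, and 8.07% of all genes on it were lower. Chromosome 17 carried 24 (5 lower and 1 higher, with 6.94% of all its genes lower) and chromosome 8 carried 16 (6 lower and 2 higher, with 8.59%). On chromosome 13 all 13 members had a difference of -0.15 or less, 8 were lower and the median was -0.33, with 11.1% of all its genes lower. By contrast, the 11 members on chromosome 4 had a median of 0.02 with 1 lower and 1 higher, and the 7 on chromosome 18 had a median of 0.00 with 0 lower, where 7.37 and 8.94% of all genes were lower. Over all genes of chromosomes 13 and 4, the medians were both -0.03.

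Many members lie side by side. Those that have another member as the next protein-coding gene form 24 runs with 70 genes, and 30 of these were lower and 2 higher, with a median of -0.22. Of the other 128 members 37 were lower and 4 higher, with a median of -0.12. The shares over all tested probe sets were 6.93% lower and 5.08% higher. The run of Zfp472, Zfp952, Zfp763 and Zfp563 on chromosome 17 had 3 of 4 members lower with a median of -0.55. Likewise, 3 of 4 were lower in the run of Zfp872, Zfp809, Zfp599 and Zfp810 on chromosome 9, whose differences ran from -0.86 to -0.05. These were the runs with the deepest medians of the 24. In other runs none was lower, as in Zfp942, Zfp943 and Zfp947 on chromosome 17 (median -0.18). The same held for Zfp982, Zfp985 and Zfp979 on chromosome 4 (median 0.02). The sizes of the differences of neighbours showed little linear relation, with a Pearson correlation of 0.04 over the 46 adjacent pairs. Single genes with large differences can weigh on this value. In 12 pairs both genes were lower, in 16 pairs 1 was and in 18 none was. Zfp948, with the largest rise, is next to Zfp983, which had a difference of -0.31 without a call.

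The genes of the members were of ordinary length and spanned a median of 18.2 kb, beside 17.7 kb over all genes. Among members with a span under 13.9 kb 22 of 66 were lower (33.3%, median -0.16), among those up to 24.9 kb 30 of 65 (46.2%, median -0.22) and among the longest 15 of 66 (22.7%, median -0.07). All genes had 7.73, 10.9 and 5.97% lower in these ranges, again with the highest share in the middle.

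A RefSeq promoter, taken here as 250 bases before to 50 after the start, was found for 162 members (81.8%), with 198 entries in all. CCAAT on either strand was in 47.0% of the member entries and in 37.4% of all 32851 promoters of the same length. GGGCGG was in 48.0 and 35.7%, TGACGTCA in 4.04 and 1.79% and TATAAA in 6.57 and 13.6%. The median GC content was 54.8% beside 52.7% and the median count of CG steps 14 beside 7. Member promoters thus had a higher share of 3 motifs and a lower share of TATAAA, in a comparison that was not tested.

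Medians with and without each of the common motifs lay close together. The 81 members with CCAAT had a median difference of -0.19 with 30 lower, and the 81 without had -0.17 with 29 lower. With GGGCGG the median was -0.16 and without it -0.20. The 13 members with TATAAA, Zfp418 and Zfp791 among them, had a median of -0.19 and 6 were lower. The CArG box was found in Zfp871, Zfp811, Zfp644 and Zfp619 (2.02% of entries, beside 1.63% of all promoters), and 0 of these 4 were lower, with a median of -0.07. Of the 158 members without it 59 were lower, with a median of -0.18, and 6.93% of all tested probe sets were. Nothing is drawn from a count over only 4 genes. TGACGTCA was found in 6 members with a median of -0.16, among them Zfp868.

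Probe sets of the same gene mostly went the same way. Of 10 members with several probe sets 9 had differences of 1 sign in heterozygous SE. Some of this agreement says little. The probe sets of Zfp788 had the same rounded values (-0.19). Those of Zfp985 were dim, with mean signals of 4.35 to 4.37 and differences of 0.02 to 0.09. Zfp664 had -0.20 and -0.17, of which only the brighter was called. Zfp825 had -0.47 and -0.59 and both were lower, and the 3 probe sets of Zfp738 had -0.33, -0.22 and -0.14, of which only the brightest was called. The exception was Zfp640, a dim gene with a mean signal of 4.25, whose probe sets had -0.01, 0.02 and 0.08. At the limits of the numbering, Zfp407 had a difference of 0.09 and Zfp991 of -0.13. Just below the limit, Zfp398 (-0.37) and Zfp397 (-0.33) were both lower in SE.

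The limit at 400 did not mark an edge of the pattern. Of 119 Zfp genes with a lower number, 58 (48.7%) were lower and 5 (4.20%) higher in heterozygous SE, with a median of -0.23. Among 65 genes of the Zbtb, Zscan and Zkscan families, which have other domains beside the fingers, 24 (36.9%) were lower and 7 (10.8%) higher, with a median of -0.09. The shares of lower genes in these groups were thus 48.7 and 36.9% beside 33.8% of the members. Differences between the groups were not tested, since all of these values come from the comparison in which the group was noticed.

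**Figure D4:**
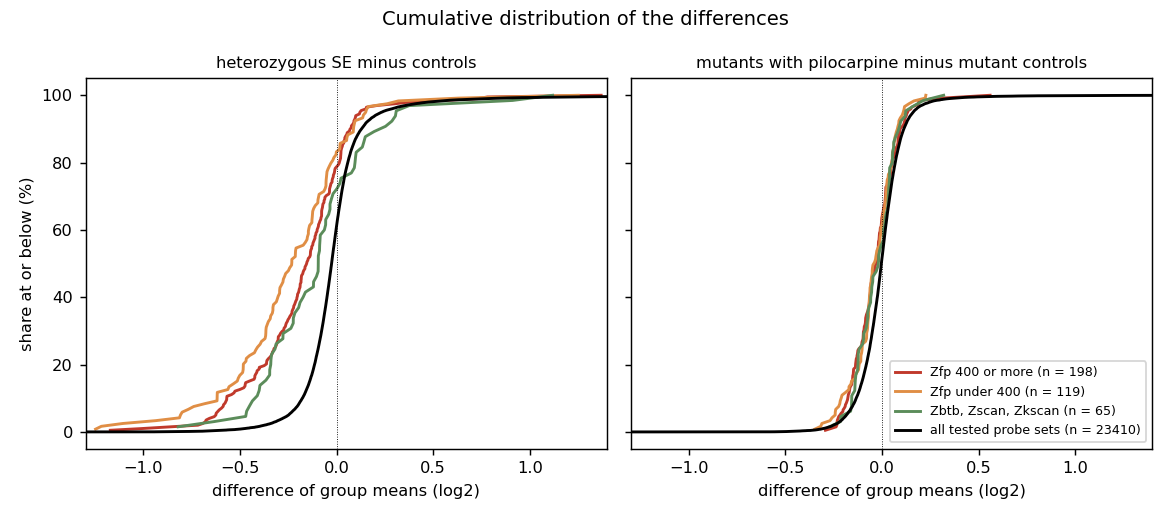
Share of genes at or below a difference (y axis, %) against the difference of group means (x axis, log2) in heterozygous SE (left) and in mutants with pilocarpine (right). Lines are the 198 members, the 119 Zfp genes with a number under 400, the 65 Zbtb, Zscan and Zkscan genes and all 23410 tested probe sets. Left, at differences below 0 the zinc finger groups lie to the left of all probe sets, with medians of -0.15, -0.23 and -0.09 beside -0.03. Right, their medians are -0.03, -0.04 and -0.02 beside 0.00.

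The mutants with pilocarpine were then asked whether they share the fall. Their difference from the mutant controls uses none of the heterozygous arrays in which the group was noticed. The comparisons are not fully separate, since the limma spread and the choice of probe sets rest on all 12 arrays. By limma 1 member (0.505%) was lower and 2 (1.01%) were higher than in the mutant controls, beside 0.965 and 0.871% of all probe sets, so that the shares of members were near the background. In either direction 1.84% of all probe sets were called. The median difference was -0.03 (SD over members 0.12), beside 0.00 over all probe sets, and the range was -0.29 to 0.56. This median moved to -0.015 with median centring and to -0.048 without dim probe sets. At an unadjusted p under 0.05, 29 members (14.6%) were lower and 9 (4.55%) higher, beside 9.16 and 5.66% of all probe sets. Every mutant with pilocarpine lay below every mutant control in 32 members (16.2%, beside 11.4% of all probe sets) and above in 7 (3.54%, beside 7.04%). The single mice had member medians of -0.02, -0.03 and -0.06, and 57.6, 58.1 and 67.2% of the members lay below the mean of the mutant controls, beside 49.3, 55.6 and 53.9% of all probe sets.

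The member that fell in the mutants was Zfp821, and it was not among those with large falls in SE. Its signal was 8.86, 8.98 and 8.81 in the mutant controls and 8.70, 8.60 and 8.64 with pilocarpine, a difference of -0.24 (standard error 0.0481, adjusted p = 0.0283 from limma). In heterozygous mice it was 8.89, 8.89 and 8.92 in controls and 8.71, 8.70 and 8.70 in SE, a difference of -0.19. Both differences were small and the groups did not overlap in either genotype. The call in the mutants was lost in 10 of 23 alternatives, with an adjusted p of up to 0.143, among them the fit on the mutant arrays alone and the fits without any single mutant with pilocarpine.

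Zfp948 and Zfp516 were the members that rose in the mutants. Zfp948 had 8.66, 8.49 and 8.48 in the mutant controls and 9.11, 9.23 and 8.96 with pilocarpine, a rise of 0.56 (standard error 0.0937, adjusted p = 0.0103 from limma). Zfp516 went from 7.65, 7.67 and 7.84 to 8.06, 8.17 and 8.17, a rise of 0.41 (standard error 0.0829, adjusted p = 0.0276 from limma). They were also the members with the largest rises in SE. Without the second mutant with pilocarpine Zfp948 had a difference of 0.49 (adjusted p = 0.0556 from limma). The call of Zfp516 was lost without mutant control 1 or 2 or without any single mutant with pilocarpine, at an adjusted p of 0.0596 to 0.101, and when probe sets without a gene were tested too (0.0678).

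The members with the largest falls in SE, Zfp418 and Zfp719, were close to their controls in the mutants. Zfp418 had 7.54, 7.63 and 7.72 in the mutant controls and 7.66, 7.70 and 7.57 with pilocarpine, a difference of 0.02 (standard error 0.0681, adjusted p = 0.954 from limma). Zfp719 had 9.37, 9.41 and 9.48 against 9.47, 9.43 and 9.36, a difference of 0.00 (standard error 0.0696, adjusted p = 0.997 from limma). Both thus kept overlapping groups. Of the 12 members with the largest falls, Zfp626 (-0.23), Zfp786 (-0.23) and Zfp551 (-0.15) had groups without overlap downward in the mutants. Over all tested probe sets 11.4% had such groups downward. None of the 12 was called, beside 0.965% lower and 0.871% higher of all probe sets.

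The lower members lay mostly below 0 in the mutants as well, by less than in SE. The 67 members lower in SE had a median of -0.41 there and of -0.07 in the mutants, where 55 (82.1%) were below 0, 22 had groups without overlap downward and 1 was called. Their medians in the single mutants with pilocarpine were -0.06, -0.09 and -0.14. The 1623 probe sets of any kind that were lower in SE likewise had a median of -0.07 in the mutants and 77.0% below 0, from a median of -0.28 in SE. Of these 1623, 510 had groups without overlap downward in the mutants and 61 were called lower. Over all tested probe sets the shares without overlap downward and called lower were 11.4 and 0.965%. The 25 members with falls of 0.5 or more had a median of -0.08, 22 were below 0 and none was called. Zfp930 (-0.29) had the largest difference among them, and Zfp583 (0.19) was the highest, neither of which was called.

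**Figure D5:**
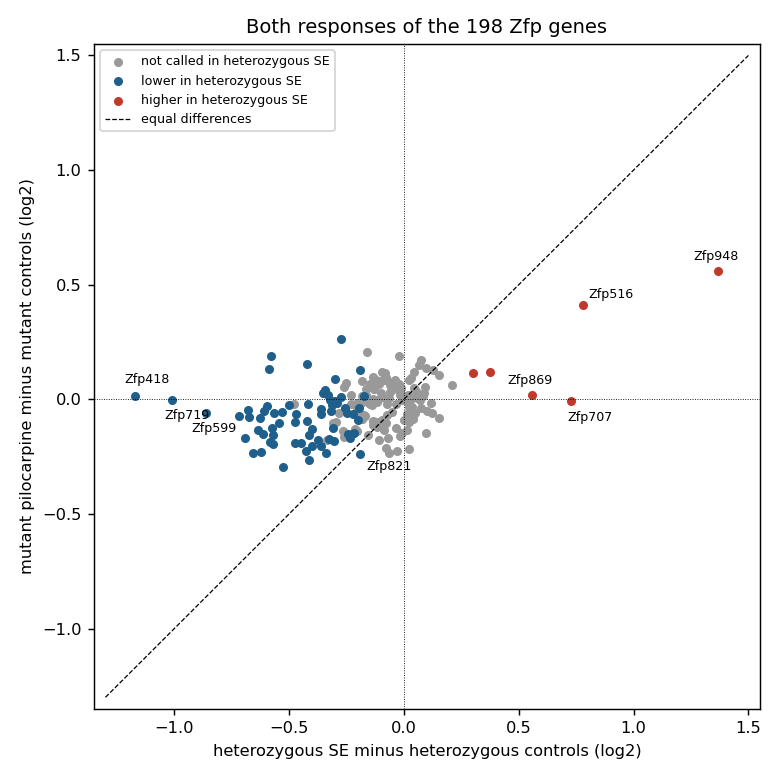
Difference in mutants with pilocarpine (y axis, log2) against that in heterozygous SE (x axis, log2) for the 198 members. Points are genes coloured by the call in heterozygous SE, and the dashed line marks equal differences. Genes lower in SE spread along the x axis to -1.17 while they stay between -0.29 and 0.26 on the y axis, and Zfp948 (0.56) and Zfp516 (0.41) are the highest in the mutants.

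Across members, the differences in the 2 genotypes had a correlation of 0.46 (Pearson) and 0.40 (Spearman), and of 0.32 and 0.38 without Zfp948 and Zfp516. Among the 67 lower members it was 0.05 and 0.14. The points share arrays and normalization, and these values are a description. The 6 members higher in SE had a median of 0.12 in the mutants. Zfp707 (-0.01) and Zfp869 (0.02) were at the level of the mutant controls.

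Ordered by signal in the heterozygous controls and cut at 7.28 and 8.32, the members had medians of -0.02, -0.03 and -0.05 from dim to bright, with 0, 0 and 1 lower. All probe sets in these ranges had medians of 0.01, -0.02 and -0.02.

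Without pilocarpine no member was called between the genotypes. Between mutant and heterozygous controls 0 members were lower or higher by limma, beside 0.0812 and 0.0384% of all probe sets (0.12% in either direction), and at an unadjusted p under 0.05 there were 1 lower (0.505%) and 9 higher (4.55%), beside 4.4 and 4.33%. The median difference was 0.02, and the range was -0.14 to 0.49. Groups without overlap numbered 4 downward and 16 upward (2.02 and 8.08%, beside 7.46 and 6.1%). The largest difference was that of Zfp931 (0.49, adjusted p = 0.563 from limma). This comparison shares the heterozygous controls with that of SE.

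The response of heterozygous mice minus that of the mutants was lower in 23 members (11.6%, beside 1.47% of all probe sets) and higher in 3 (1.52%, beside 2.12%), or 26 in either direction beside 3.59%. All 23 were among the 67 lower members. This difference contains the comparison in which the group was noticed and is a description for that reason.

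Genes through which KRAB zinc finger proteins act on chromatin were taken as a list of 36 symbols, in which Fam208a is an older name of Tasor. The list also holds Zfp57, itself a KRAB zinc finger gene. Of the 36 symbols, 32 were measured. In heterozygous SE 6 (18.8%) were lower and 1 (3.12%) higher, beside 6.93 and 5.08% of all probe sets, with a median of -0.04. Trim28 (0.06), the central corepressor, and Setdb1 (-0.14), the histone methyltransferase it recruits, were not called. The lower genes were Resf1 (-0.37), a partner of Setdb1, Ehmt1 (-0.35), a histone methyltransferase, Morc3 (-0.35) and Daxx (-0.23), which act in chromatin silencing, Atf7ip (-0.20), which stabilizes Setdb1, and Kdm1a (-0.16), a histone demethylase. Suv39h2 (0.18) was higher. In the mutants with pilocarpine 0 of the 32 were lower or higher by limma, beside 0.965 and 0.871% of all probe sets, with a median of 0.00.

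Of 42 measured marker genes of hippocampal cell types 4 (9.52%) were called in SE, beside 12% of all probe sets in either direction. Of 8 markers of excitatory neurons 0 were called, and their summed log2 signal was 15.25 to 15.29 in heterozygous controls and 15.16 to 15.23 in SE. Astrocytes (6 markers, 14.25 to 14.35 and 14.32 to 14.33), oligodendrocytes (5, 13.83 to 14.09 and 13.80 to 13.91) and choroid plexus (6, 9.93 to 10.98 and 9.95 to 10.14) had 0 calls. Of 6 markers of inhibitory neurons 1 was higher (13.64 to 13.65 and 13.77 to 13.80). Of 5 microglial markers 2 were lower (11.44 to 11.55 and 11.37 to 11.50), and of 6 endothelial markers 1 was lower (11.22 to 11.46 and 10.92 to 11.40). In the mutants with pilocarpine no marker of any of these lists was called, beside 1.84% of all probe sets in either direction. The oligodendrocyte markers had a median of -0.28 there. Their sums were 13.95 to 13.98 in the mutant controls and 13.48 to 13.89 with pilocarpine. Medians of the other lists ran from -0.13 (endothelial cells) to 0.07 (inhibitory neurons). The part of cell composition in the fall of the members was not tested.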

How the data were processed

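Hippocampal RNA of 12 mice was hybridized to 1 array per mouse. Per the labels, the authors used Affymetrix Expression Console, and the deposited log2 values were summarised by robust multiarray average (RMA), which corrects the background, equalises the distributions of the arrays by quantiles and combines the probes of a probe set. Samples were grouped by their labels, with genotypes described as in the study's methods and the 3 injected mutants taken as those without SE, which the labels do not state. limma 3.58.1 in R 4.3.3 (lmFit and eBayes) was fitted to the 23410 annotated probe sets with 1 mean per group, no block and 1 spread per probe set shared by 12 arrays. p values were adjusted over all 23410 by the Benjamini-Hochberg method, and calls needed an adjusted p under 0.05. Tables were made with pandas 2.3.3 in Python 3.11.15.

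The members, the lists and the tests were chosen with earlier results of these data known. Members named with values are the 12 with the largest fall in heterozygous SE among those without overlap between groups, the 6 with the largest rise, every member called in the mutants, the member with the median difference at each level of signal, those at the limits of the numbering, and genes whose probe sets disagree in sign. Members outside this rule (Zfp445, Zfp568, Zfp598, Zfp809 and others with a known role, in a run of neighbours or of extreme value) were named after their values were seen. Gene positions and promoters are those of RefSeq (GRCm38.p6), where 197 members were found by Entrez identifier and 0 symbols had changed. The planned count of finger and KRAB patterns in protein sequences was not analysed here, nor were arrays of mutants with SE.

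Precision is limited by the number of arrays, with each replicate 1 mouse. Among 23410 simulated probe sets, 50 were changed by each size. Changes of -0.25, -0.5 and -1 (log2) were recovered at 50, 86 and 100% in the heterozygous contrast. In the mutant contrast the rates were 36, 82 and 100%. The simulation gave all groups the same mean and spread, so that the rates of the contrasts differ only by the random draw. Fewer probe sets were changed in it than were called in heterozygous SE or in the mutants with pilocarpine. The rates therefore do not give the power behind the counts of members called above. Alternatives changed the prior, the filter on dim probe sets, the normalization, the weights of arrays, a block by animal number, the arrays and probe sets in the fit and the measure of signal, or left out each array. Xist as a covariate and an unadjusted p were added after the data were seen.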

Additional observations from a re-analysis of the deposited data

Results flagged for a closer look

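The response of heterozygous mice with SE minus that of mutants with pilocarpine differed by limma in 23 members downward and in 3 upward. These are 11.6 and 1.52% of the members, beside 1.47 and 2.12% of all tested probe sets. Among the members named above, this difference of responses was -1.19 for Zfp418, -1.01 for Zfp719, -0.81 for Zfp599, -0.64 for Zfp748 and -0.63 for Zfp563 (log2). It was -0.50 for Zfp454, -0.42 for Zfp626 and -0.39 for Zfp786. Upward it was 0.81 for Zfp948, 0.74 for Zfp707 and 0.54 for Zfp869. The heterozygous response is the one in which the group was noticed, so that these values are a description. If the mutants had no SE, as was inferred, genotype and SE cannot be told apart.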

How the results depend on the processing

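In heterozygous SE 67 members were lower and 6 higher, and over the alternatives at the same limit there were 52 to 78 lower and 4 to 8 higher. Leaving out single arrays gave 52 to 74 lower and 4 to 8 higher, and the study's limits gave 2 lower and 1 higher. In the mutants the count of 1 lower became 0 with median centring, a replicate block, all probe sets, the compared groups only, Xist as a covariate or the study's limits, 29 at an unadjusted p and 0 to 4 without single arrays. The 2 higher became 1 with all probe sets, 0 under the study's limits, 9 at an unadjusted p and 0 to 2 without single arrays. Between the controls 0 became 10 at an unadjusted p, and stayed 0 without any single array. The count of 26 for the difference of the responses became 2 under the study's limits and 17 to 28 without single arrays.

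The median of -0.154 in SE became -0.123 with median centring, -0.124 with cyclic loess and -0.181 without dim probe sets (-0.159 to -0.14 without single arrays). The median of -0.031 in the mutants became -0.015 with median centring and -0.048 without dim probe sets (-0.044 to -0.023 without single arrays, with -0.044 without mutant with pilocarpine 1). The lowest minus the highest range of signal in SE, -0.013, became 0.018 with quantile normalization and -0.112 without dim probe sets (-0.016 to 0.02 without single arrays). In the mutants 0.028 became 0.001 with quantile normalization, -0.008 with cyclic loess, -0.028 without dim probe sets, -0.001 with the mean of 12 arrays as signal and 0.011 with that of the same controls (0.014 to 0.052 without single arrays). Except where the alternative changes the limit, the samples or the genes, the cause was not tested.

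Deviations of equal animal numbers correlated at -0.31 to 0.15, with 3 mice per group, too few to tell whether the numbers pair the samples. The main fit has no block. With the number as a replicate block 65 members were lower and 7 higher in SE, 0 lower and 2 higher in the mutants, 0 called between the controls and 20 for the difference of the responses.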
